A study of Arabidopsis thaliana with 24 samples.

Results

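The glutamate receptor-like (GLR) genes of Arabidopsis thaliana were followed across 24 rosette arrays. The genes were those probe sets whose single gene symbol in the platform's annotation is GLR followed by a number, which gave 7 of the 13350 gene symbols that stand alone on a probe set. They are GLR1.4, GLR2.7, GLR2.8, GLR2.9, GLR3.3, GLR3.5 and GLR3.6, each read by 1 probe set. Of the 20 genes of the family list, GLR1.2 was the only other one named alone, under the older symbol ATGLR1.2, which the rule does not take.

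GLR proteins are the plant relatives of the ionotropic glutamate receptors of animal nerve cells. They form ion channels in membranes that let calcium into the cytosol, and amino acids or peptides can open several of them. In leaves they are known for the electrical and calcium signals that spread from wounds and for calcium entry after microbial patterns are sensed.

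The arrays fell into 6 groups of 4, all from rosettes of 4-week-old plants grown at 22 °C with 14 h of light. Wild-type Col-0 plants and plants mutant in MILDEW-INDUCED LESIONS 4 (mil4) received a spray of either 300 µM BTH or water, and were collected 2 days later. BTH is a benzothiadiazole, a man-made stand-in for the defence hormone salicylic acid. Plants of sid2, which lack the isochorismate synthase that makes most pathogen-induced salicylic acid, and mil4 sid2 double mutants received water only. The series concerns MIL4 as a regulator of salicylic acid defence, and the groups ask how the genes respond to BTH, to mil4 and to sid2. The labels call the arrays biological replicates; they do not say how plants were pooled or which alleles were used. The text gives Col-0 as Col.

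Array medians lay between 151.8 and 185.0 intensity units, and each array had 9.61% to 17.9% of its probe sets under 16, the value added before taking log2. The array of sid2 replicate 1 stood apart, with both the highest median and the lowest share under 16, the next values being 175.6 units and 14.2%. The ratio of the 3′ to the 5′ probe set of GAPDH, a measure of RNA integrity, ran from 0.651 to 1.648. Arrays were hybridized on 4 days in 8 runs, and all sid2 and mil4 sid2 arrays fell on the fourth day, which held no other group. No probe set with a single gene name was taken for MIL4 or the gene mutated in sid2, so genotype was not checked on the arrays. RCA, the rubisco activase of leaf mesophyll, was at 19077.1 or more on every array, and was the 1 of 12 listed mesophyll markers measured. None of the 10 listed root markers had a named probe set.

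GLR1.4 lies on chromosome 3 (AT3G07520), as does GLR3.6 (AT3G51480). GLR3.3 (AT1G42540) lies on chromosome 1, and GLR3.5 (AT2G32390) on chromosome 2. GLR2.9 (AT2G29100), GLR2.8 (AT2G29110) and GLR2.7 (AT2G29120) are consecutive protein-coding genes on chromosome 2 in the RefSeq annotation of assembly TAIR10.1. The neighbours were not alike on the arrays. GLR2.7 ranged from 107.9 to 813.4 intensity units and GLR2.8 from 17.7 to 568.7, whereas GLR2.9 ranged from 1.3 to 36.8 and lay under 16 on 14 of 24 arrays. Levels of different probe sets are given side by side here and not ranked, since probes differ in brightness.

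**Figure D1:**
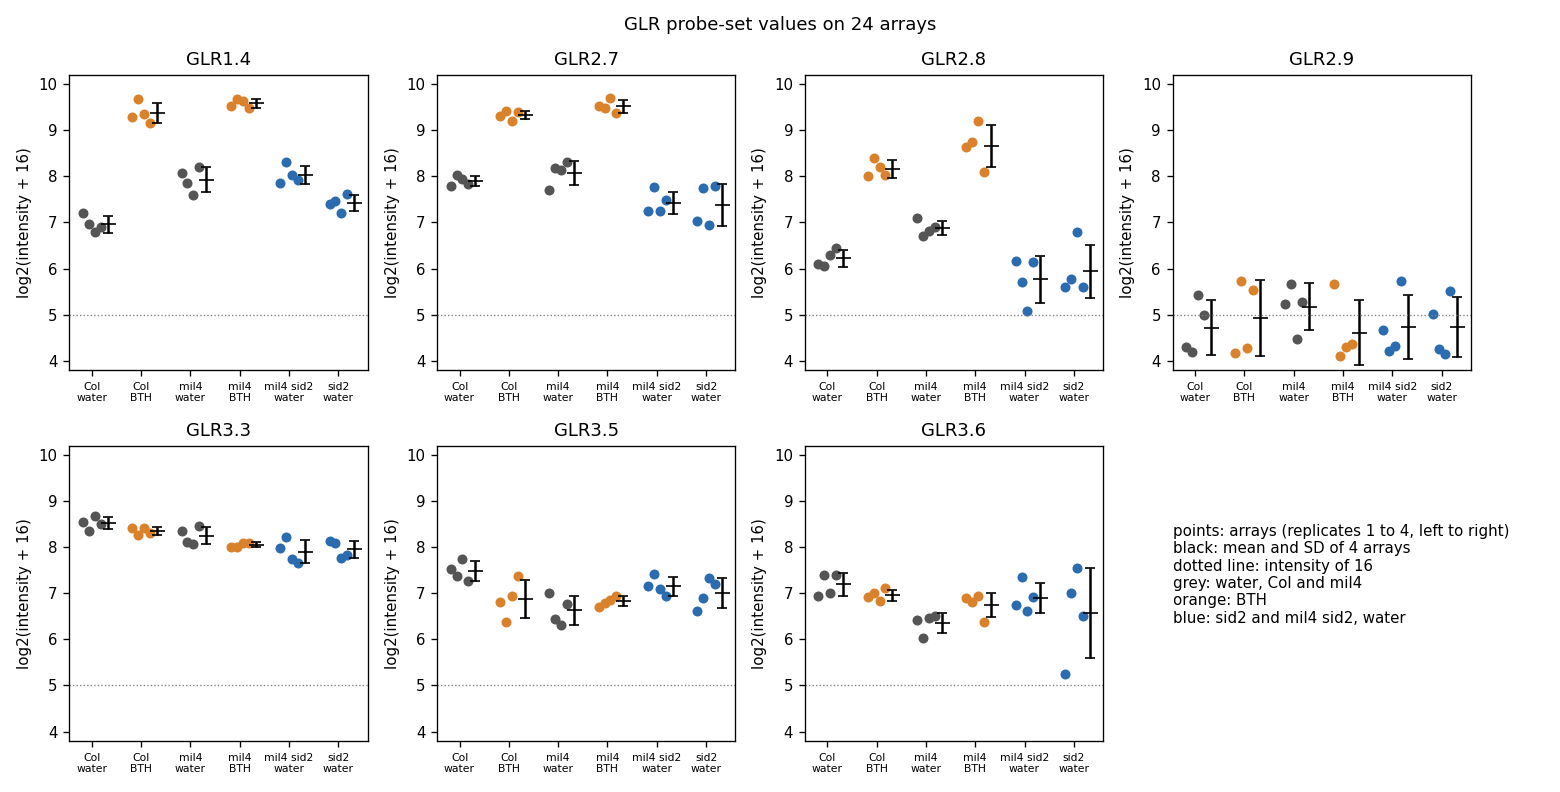
Log2(intensity + 16) of the 7 GLR genes on the 24 arrays, 1 panel per gene and 4 points per group, with the mean and SD of each group in black. GLR1.4, GLR2.7 and GLR2.8 stand higher on all BTH arrays (orange) than on any water array, and GLR2.9 lies around an intensity of 16 (dotted line) in every group.

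BTH was followed by a rise of the same 3 GLR genes in both genotypes: GLR1.4, GLR2.7 and GLR2.8. In Col they rose 5.3-fold, 2.68-fold and 3.82-fold, and in mil4 3.14-fold, 2.7-fold and 3.44-fold. GLR3.3 and GLR3.6, the channels known for long-distance wound signals, did not pass the test in either genotype, and neither did GLR2.9. GLR3.5 was the only gene to fall, in Col, and that call was lost once same-numbered Col arrays were treated as pairs. Folds are on the log2(intensity + 16) scale, which understates changes of dim probe sets.

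GLR1.4, a cation channel that methionine opens when it is expressed in frog oocytes, read 132.3, 108.2, 94.8 and 103.0 intensity units in Col with water (replicates 1 to 4). After BTH it read 611.6, 805.4, 634.3 and 557.3. Every BTH array of Col thus lay far above every water array. In mil4 it read 252.5, 216.2, 176.4 and 280.4 with water and 725.4, 801.0, 779.0 and 699.0 with BTH, again with no overlap. The log2 difference was 2.41 (SE 0.14, adjusted p = 1.36e-09, limma with Benjamini-Hochberg adjustment over 22746 probe sets) in Col. It was 1.65 (SE 0.14, adjusted p = 2.7e-07, limma) in mil4. By size the Col change ranked 51 of 22746 probe sets, and the mil4 change 280.

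GLR2.7, one of the clustered clade 2 genes needed in Arabidopsis for full calcium rises after bacterial patterns, read 205.9, 246.4, 230.6 and 212.0 in Col with water and 616.1, 663.4, 574.4 and 655.0 after BTH. In mil4 it read 192.9, 273.7, 265.2 and 301.0 with water and 722.4, 696.9, 813.4 and 642.8 with BTH. The groups did not overlap in either genotype. Its log2 difference was 1.42 (SE 0.18, adjusted p = 1.14e-05, limma) in Col and 1.43 (SE 0.18, adjusted p = 9.73e-06) in mil4.

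GLR2.8, its neighbour in that cluster, read 52.6, 50.4, 62.5 and 71.4 in Col with water and 239.8, 323.4, 276.2 and 245.4 after BTH. In mil4 it read 120.7, 88.7, 97.0 and 103.1 with water and 378.8, 413.8, 568.7 and 257.0 with BTH, the last being the lowest array of the BTH group and still above all water arrays. The log2 difference was 1.93 (SE 0.26, adjusted p = 3.24e-05, limma) in Col and 1.78 (SE 0.26, adjusted p = 6.75e-05) in mil4. GLR2.9, the remaining gene of the cluster, differed by 0.21 (SE 0.44, adjusted p = 0.849) in Col and by -0.56 (SE 0.44, adjusted p = 0.465) in mil4. The 95% interval in Col ran from -0.72 to 1.13, on a scale that compresses differences at intensities this low.

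The 3 rises were present on each hybridization day that held both treatments. Within days 1, 2 and 3 GLR1.4 differed by 2.41, 2.08 and 2.73 in Col and by 2.05, 1.27 and 1.64 in mil4. For GLR2.7 the Col values were 1.41, 1.51 and 1.37 and the mil4 values 1.56, 1.06 and 1.56. For GLR2.8 the Col values were 1.74, 1.90 and 2.35 and the mil4 values 2.37, 1.2 and 1.78. Within a genotype, water and BTH arrays never shared a fluidics module. With the module as a block all of these 6 calls were kept, but in that fit the part of the module that goes with BTH is estimated from the 8 sid2 and mil4 sid2 arrays of the fourth day alone.

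GLR3.5, which acts with a clade 3 partner in the calcium signals of guard cells, read 168.0, 150.7, 198.2 and 136.7 in Col with water and 97.0, 67.0, 107.1 and 148.7 after BTH. Replicate 4 of the BTH group overlapped the water arrays. It fell by 0.60 on the log2 scale (SE 0.19, 1.52-fold, adjusted p = 0.0451, limma). The call was lost in 14 of 17 other settings. These included the replicate block (adjusted p = 0.0577), which applies because same-numbered Col arrays are paired, and leaving out any one of 6 of the 8 arrays (Col with water replicates 1, 2 and 3 and Col with BTH replicates 1, 2 and 3, adjusted p 0.0649 to 0.184). In mil4 it read 111.9, 71.0, 63.6 and 93.2 with water and 88.4, 95, 100.4 and 106.7 with BTH, a difference of 0.19 (SE 0.19, adjusted p = 0.578).

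GLR3.3, which carries wound-triggered electrical signals together with GLR3.6, lay between 311.7 and 394.5 in Col with water and between 288.9 and 324.1 after BTH, a difference of -0.17 (95% interval -0.43 to 0.09, adjusted p = 0.46, limma). In mil4 it differed by -0.19 (-0.45 to 0.07, adjusted p = 0.339). GLR3.6 differed by -0.22 (-0.87 to 0.42, adjusted p = 0.747) in Col and by 0.40 (-0.25 to 1.04, adjusted p = 0.453) in mil4. The intervals of both genes end below the rise of GLR2.7 in either genotype.

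In all, 4 of 7 GLR genes passed the test in Col, 3 higher and 1 lower, against 12.7% of all probe sets (6.72% for rises and 5.97% for falls). For mil4 the count was 3 of 7, all rises, against 17.4% of probe sets (9.67% for rises). After quantile normalization the calls over all probe sets split into 1349 rises and 1491 falls in Col, in place of 1528 and 1358, and into 1752 rises and 2135 falls in mil4, in place of 2200 and 1768. In each genotype the arrays of 3 of 7 genes did not overlap, against 17.9% of all probe sets in Col and 20.2% in mil4. The median difference over the 7 genes was 0.21 in Col and 0.40 in mil4, and over all probe sets 0.01 and 0.05. When the Col arrays were fitted alone with their pairs as a block, 1057 probe sets passed in place of 2886. In that paired fit 3 of 7 GLR genes passed in place of 4, all rises, because GLR3.5 lost its call. The replicate block over all arrays also called 3.

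**Figure D2:**
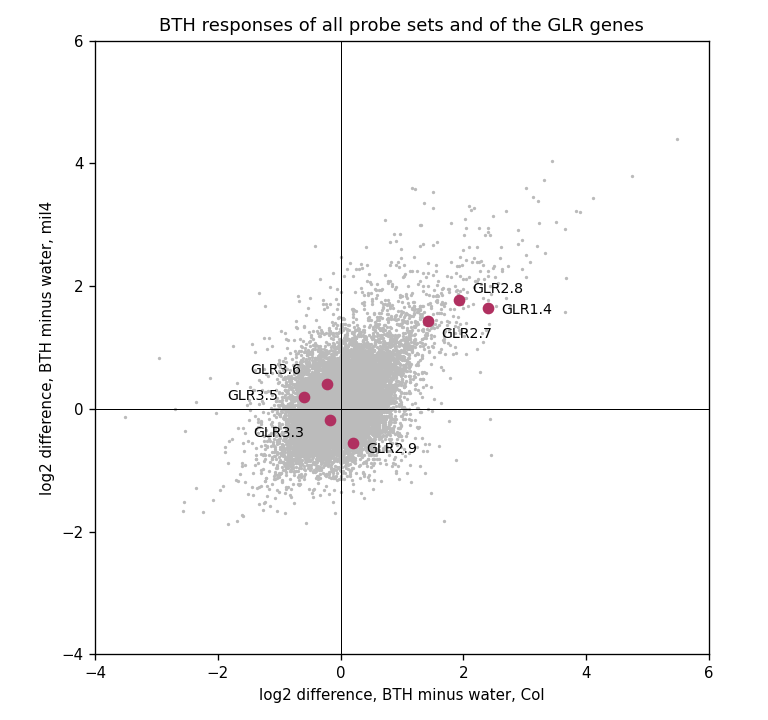
Log2 difference between BTH and water in mil4 (vertical axis) against that in Col (horizontal axis), for all 22746 probe sets (grey) and the 7 GLR genes (red). GLR1.4, GLR2.7 and GLR2.8 lie at 1.42 or more in both genotypes, and the other 4 genes lie between -0.60 and 0.40 on both axes.

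The size of the BTH response was compared between mil4 and Col through the genotype by BTH interaction. No GLR gene passed (0 of 7 in limma, 2 at an unadjusted p under 0.05, against 1.01% of all probe sets called). For GLR1.4 the response was smaller in mil4 by 0.76 on the log2 scale, an interaction of -0.76 (SE 0.20, 95% interval -1.18 to -0.33, adjusted p = 0.0844). It passed when only bright probe sets were tested (adjusted p = 0.0252) and without mil4 with water replicate 3 (adjusted p = 0.0363). Brightness was judged over all groups, BTH arrays included. GLR1.4 averaged 110 intensity units in Col and 231 in mil4 with water, and 652 and 751 with BTH. Its place in the bright set therefore draws on the BTH rise itself, and the pass there is not separate support for the interaction. GLR3.5 had an interaction of 0.79 (SE 0.27, adjusted p = 0.241). For GLR2.7 the interaction was 0.01 (-0.51 to 0.53, adjusted p = 0.997) and for GLR2.8 it was -0.15 (-0.92 to 0.62, adjusted p = 0.949). GLR2.9, GLR3.3 and GLR3.6 had interactions of -0.76, -0.02 and 0.62 (adjusted p = 0.779, 0.988 and 0.725).

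After BTH itself, mil4 and Col were not told apart for any GLR gene (0 of 7 in limma, 1 at an unadjusted p under 0.05, against 3.29% of all probe sets called). GLR1.4 differed by 0.21 (95% interval -0.09 to 0.51, adjusted p = 0.572), GLR2.7 by 0.19 (-0.18 to 0.56, adjusted p = 0.715) and GLR2.8 by 0.51 (-0.04 to 1.05, adjusted p = 0.403). GLR3.3 read 322.9, 288.9, 324.1 and 302.6 in Col and 242.2, 241.0, 256.7 and 257.5 in mil4. Its arrays did not overlap, as for 9.91% of all probe sets, and it differed by -0.29 (SE 0.12, adjusted p = 0.265). GLR2.9, GLR3.5 and GLR3.6 differed by -0.32, -0.05 and -0.21 (adjusted p = 0.83, 0.95 and 0.84).

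In water-sprayed plants mil4 carried more GLR1.4 and less GLR3.5 than Col. GLR1.4 was 1.96-fold higher, with every mil4 array (176.4 to 280.4) above every Col array (94.8 to 132.3). The log2 difference was 0.97 (SE 0.14, adjusted p = 0.000129, limma), and it was 0.74, 1.0 and 1.01 within days 1, 2 and 3. GLR3.5 was 1.79-fold lower, with mil4 arrays from 63.6 to 111.9 and Col arrays from 136.7 to 198.2. Its difference was -0.84 (SE 0.19, adjusted p = 0.00746), and within the days it was -1.18, -0.75 and -0.66. The call for GLR3.5 was lost with the run as a block (adjusted p = 0.0775), and both calls were lost in a fit of the 2 groups alone with the replicate number as a block (adjusted p = 0.0515 and 0.134).

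GLR2.8 and GLR3.6 had arrays that did not overlap but did not pass. GLR2.8 lay at 88.7 to 120.7 in mil4 and 50.4 to 71.4 in Col, a difference of 0.66 (SE 0.26, adjusted p = 0.163). GLR3.6 read 69.9, 49.6, 72.2 and 74.8 in mil4 and 107.7, 151.2, 113.0 and 152.8 in Col, a difference of -0.83 (SE 0.31, adjusted p = 0.126). Both passed in a fit of these 2 groups alone (adjusted p = 0.0377 and 0.0285). GLR2.7, at 0.18 (95% interval -0.19 to 0.55, adjusted p = 0.685), had all its Col arrays within the mil4 range. GLR2.9 differed by 0.44 (SE 0.44, adjusted p = 0.698) and GLR3.3 by -0.27 (SE 0.12, adjusted p = 0.249). Of the 7 genes 2 passed, 1 in each direction, where 7.4% of all probe sets passed (3.24% higher and 4.17% lower), and 4 did not overlap, against 11.7% of all.

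The water-sprayed groups without SID2 showed different orders for different genes. Because these arrays alone were hybridized on the fourth day, a difference of sid2 or mil4 sid2 from any group of Col or mil4 cannot be told apart from the day. The GAPDH ratio was 1.16 ± 0.0567 in sid2 and 1.09 ± 0.0174 in mil4 sid2, against 0.854 ± 0.116 in Col and 1.03 ± 0.435 in mil4 with water (SD, n = 4). The mil4 group spanned 0.651 to 1.648, the lowest and the highest array of the series. The part of this ratio in the differences was not tested.

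In sid2, GLR3.3 read 262.9, 257.9, 201.6 and 211.6 against 354.6, 311.7, 394.5 and 346.6 in Col. Every sid2 array lay below every Col array. The gene was 1.48-fold lower, a log2 difference of -0.56 (SE 0.12, adjusted p = 0.00353, limma), and the call was lost only in the fit of these 2 groups with the replicate block (adjusted p = 0.145), among 16 settings. GLR1.4 went the other way. It read 153.1, 161.6, 131.2 and 179.3 in sid2, of which the lowest fell just inside the Col range, and differed by 0.46 (SE 0.14, adjusted p = 0.0383). That call was lost in 11 of 16 settings, including leaving out Col replicate 2, 3 or 4 or sid2 replicate 1, 2 or 4 (adjusted p 0.069 to 0.108), of which sid2 replicate 1 is the array with the highest median.

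GLR2.7 read 115.1, 199.5, 107.9 and 206.1 in sid2, with 2 arrays near Col and 2 well below it, and differed by -0.52 (SE 0.18, adjusted p = 0.0555). It passed without sid2 replicate 2 or 4 (adjusted p = 0.023 and 0.0177) and with the replicate number or the module as a block (adjusted p = 0.0333 and 0.0414, limma). Among bright probe sets GLR2.7 also passed (adjusted p = 0.0214, limma). Brightness was judged with the BTH arrays included, on which GLR2.7 stands high, so that pass is not separate support. GLR3.6 read 21.8, 112.1, 169.9 and 74.8 in sid2, lowest on replicate 1, and differed by -0.62 (SE 0.31, adjusted p = 0.214). It passed without sid2 replicate 3 (adjusted p = 0.0344). GLR2.8, GLR2.9 and GLR3.5 differed by -0.28, 0.01 and -0.46 (adjusted p = 0.545, 0.993 and 0.129). In all, 2 of 7 genes passed, 1 in each direction, where 13.5% of all probe sets passed (6.64% higher and 6.82% lower), and 1 of 7 did not overlap, against 17.3% of all.

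GLR2.8 and GLR2.7 were lower in mil4 sid2 than in mil4, and GLR1.4 did not pass. GLR2.8 read 55.9, 36.5, 17.7 and 54.5 in mil4 sid2, all below the lowest mil4 array at 88.7. It was 2.15-fold lower, a log2 difference of -1.11 (SE 0.26, adjusted p = 0.0147, limma). The call was lost without mil4 sid2 replicate 3 (adjusted p = 0.0582), with the module as a block (adjusted p = 0.106) and in both fits of the 2 groups alone. GLR2.7 read 136.0, 200.5, 135.6 and 162.4 in mil4 sid2, and 1 of these arrays lay above the lowest mil4 array. It was 1.57-fold lower, at -0.65 (SE 0.18, adjusted p = 0.0325), and the call was lost in 10 of 16 settings. It was lost without mil4 replicate 2, 3 or 4 or mil4 sid2 replicate 1, 3 or 4 (adjusted p 0.061 to 0.0969). Quantile normalization, the module block and both fits of the 2 groups alone also lost it (adjusted p 0.0517 to 0.152).

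GLR1.4 read 216.4, 303.2, 245.5 and 224.8 in mil4 sid2, overlapping the mil4 arrays. It differed from mil4 by 0.10 (95% interval -0.20 to 0.40, adjusted p = 0.781). GLR3.3 differed by -0.34 (SE 0.12, adjusted p = 0.118), GLR3.5 by 0.52 (SE 0.19, adjusted p = 0.132) and GLR3.6 by 0.55 (SE 0.31, adjusted p = 0.36). GLR2.9 differed by -0.44 (SE 0.44, adjusted p = 0.657). GLR3.3 passed without mil4 sid2 replicate 2 (adjusted p = 0.0481) and among bright probe sets (adjusted p = 0.0491). The arrays of GLR3.6 did not overlap, at 82.2 to 146.7 in mil4 sid2 and 49.6 to 74.8 in mil4. Of the 7 genes 2 passed, both lower, where 5.57% of all probe sets passed and 2.82% were lower, and 2 did not overlap, against 13.2% of all.

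The mil4 sid2 and sid2 groups shared the fourth day, so mil4 can be read there without the day. No GLR gene passed (0 of 7 in limma, 1 at an unadjusted p under 0.05, against 0.47% of all probe sets called). That 1 gene was GLR1.4, with every mil4 sid2 array (216.4 to 303.2) above every sid2 array (131.2 to 179.3), which held for 7.76% of all probe sets. It differed by 0.61 (SE 0.14, unadjusted p = 0.000403, adjusted p = 0.0674, limma), and by 0.65 and 0.57 within the 2 runs of that day. It passed with the day as a block (adjusted p = 0.0484) and among bright probe sets only (adjusted p = 0.0181). Since both groups lie wholly on the fourth day, the day block leaves this difference as it is and changes only the estimated spread. Brightness was judged with the BTH arrays included, on which GLR1.4 stands high. The pass among bright probe sets is therefore not separate support. GLR2.7 differed by 0.05 (95% interval -0.32 to 0.41, adjusted p = 0.958) and GLR2.8 by -0.17 (-0.71 to 0.38, adjusted p = 0.877). GLR2.9, GLR3.3 and GLR3.5 differed by 0.00, -0.05 and 0.13 (adjusted p = 0.999, 0.926 and 0.864). GLR3.6 differed by 0.33 (SE 0.31, adjusted p = 0.759), and by -0.11 without sid2 replicate 1.

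Whether the effect of mil4 depended on SID2 was tested by the mil4 by sid2 interaction in water-sprayed plants. GLR3.5 was the 1 gene of 7 to pass, where 5.32% of all probe sets passed and 2.86% were higher. It read 81.4, 104.0, 145.7 and 131.8 in sid2 and 125.7, 154.3, 120.4 and 107.0 in mil4 sid2, which overlap, whereas mil4 lay wholly below Col. The interaction was 0.98 (SE 0.27, adjusted p = 0.0385, limma), and the call was lost in 16 of 25 settings. SWEET11, a vascular marker, also passed in this comparison (-0.77, SE 0.20, adjusted p = 0.0229), and its part was not tested. Among the settings that lost the GLR3.5 call were the day as a block (adjusted p = 0.0631) and leaving out any one of 10 of the 16 arrays (Col replicates 1, 2 and 3, mil4 replicates 2 and 3, mil4 sid2 replicates 1, 2 and 3, and sid2 replicates 1 and 2, adjusted p 0.0529 to 0.0866).

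GLR2.8 had an interaction of -0.82 (SE 0.37, adjusted p = 0.266) and GLR3.6 of 1.16 (SE 0.44, adjusted p = 0.151), which passed without sid2 replicate 3 (adjusted p = 0.0284). For GLR1.4 it was -0.36 (95% interval -0.78 to 0.07, adjusted p = 0.423) and for GLR2.7 it was -0.13 (-0.65 to 0.39, adjusted p = 0.868). GLR2.9 had -0.45 (SE 0.63, adjusted p = 0.812) and GLR3.3 had 0.22 (SE 0.18, adjusted p = 0.615).

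**Figure D3:**
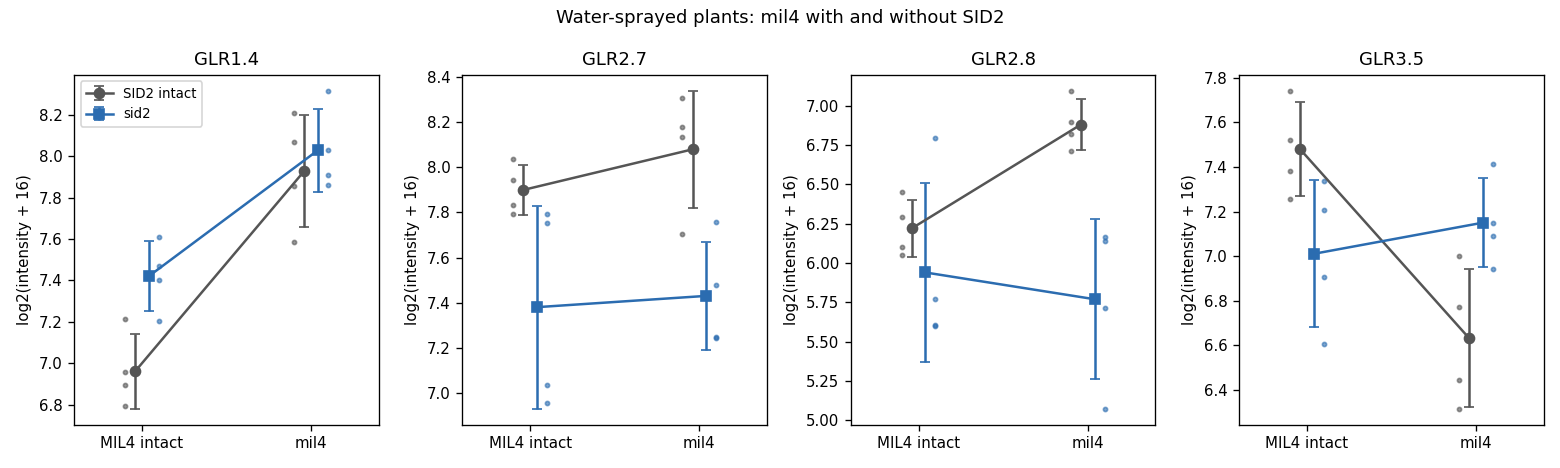
Log2(intensity + 16) of 4 GLR genes in water-sprayed plants with MIL4 intact or mutated, with SID2 intact (grey) or in sid2 (blue), as mean and SD of 4 arrays with the single arrays beside them. For GLR1.4 both lines rise, for GLR2.7 and GLR2.8 the blue mean in mil4 lies 0.65 and 1.11 below the grey one, and for GLR3.5 the grey line falls by 0.84 while the blue one differs by 0.13.

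Set in order over the 6 groups, the mean log2 level of GLR1.4 was highest in mil4 with BTH (9.58) and Col with BTH (9.37). It was lower in mil4 sid2 (8.03), mil4 (7.93), sid2 (7.42) and Col (6.96) with water. Of neighbours in this order, Col with BTH and mil4 sid2 differed (adjusted p = 8.97e-07, limma, in a comparison that called 17.9% of all probe sets), as did sid2 and Col, and the others did not pass. The 2 mutant groups carrying mil4 were both above Col, mil4 sid2 by 1.07 (2.09-fold, adjusted p = 2.04e-05, against 13.6% of all probe sets called). The values of sid2 and mil4 sid2 carry the fourth day with them, in this order and in those below. The call of GLR1.4 in sid2 against Col was lost in 11 of 16 settings. GLR2.7 and GLR2.8 shared another order, with mil4 and Col after BTH first, then mil4 and Col with water, and the groups without SID2 last. In both only the step from Col with BTH to mil4 with water passed (adjusted p = 5.31e-05 and 0.00189, against 13.7% of all probe sets called). Between neighbours in the order of GLR2.9, GLR3.3, GLR3.5 and GLR3.6 no step passed.

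**Figure D4:**
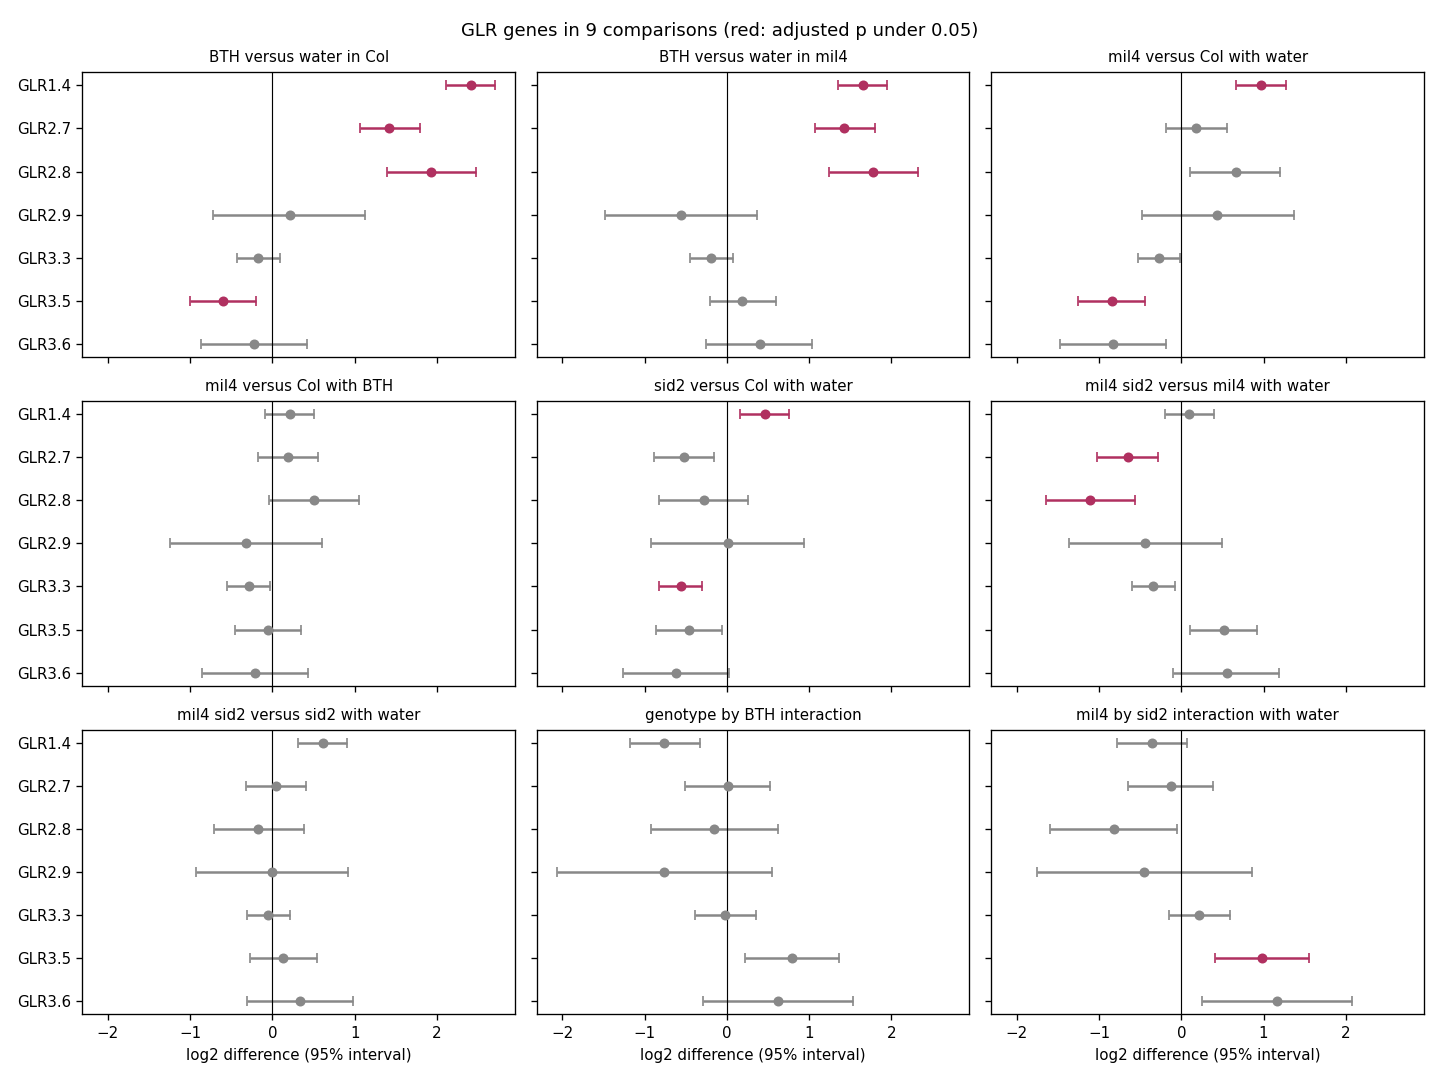
Log2 differences of the 7 GLR genes with 95% intervals in the 9 comparisons, in red where the adjusted p was under 0.05. The BTH panels hold 3 large rises each, from 1.42 to 2.41 in Col and from 1.43 to 1.78 in mil4, and the other red points lie between -1.11 and 0.98.

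As a description over the 24 arrays, which share the BTH groups, Pearson's r was 0.90 between GLR2.7 and GLR2.8, 0.85 between GLR1.4 and GLR2.7 and 0.84 between GLR1.4 and GLR2.8. Once group means were removed it was -0.19, 0.35 and -0.12. Among clade 3 genes the highest r was 0.55, between GLR3.5 and GLR3.6. Outside the family, the named genes most like GLR1.4 were AT3G49340 (r = 0.964), AT3G48080 (0.955) and SAL2 (0.955), among 5962 probe sets of other single genes above the median brightness. GLR2.7 was most like CRT1b (0.955), which encodes a calreticulin of the endoplasmic reticulum, then RING1 (0.951) and AT3G60540 (0.951). GLR2.8 was most like AT1G55210 (0.940), AT4G00700 (0.934) and AT2G42360 (0.928). The closest genes were AT1G32520 (0.848) for GLR3.3, AT5G38220 (0.782) for GLR3.5 and PRA7 (0.742) for GLR3.6, and no gene passed 0.466 for GLR2.9. With group means removed, r was 0.47 to 0.59 for the 3 genes named with GLR1.4, 0.22 to 0.57 for those with GLR2.7 and 0.06 to 0.43 for those with GLR2.8. It was 0.33, 0.58 and 0.77 for those named with GLR3.3, GLR3.5 and GLR3.6.

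Other parts of calcium signalling could be read only in part, since few genes of the lists had a named probe set. Of 59 calmodulins and calmodulin-like proteins, which bind calcium and pass its signal on, 7 were measured. In Col after BTH 1 of 7 passed, against 12.7% of all probe sets. It was CML41, a calmodulin-like protein of the cell-to-cell channels, which rose 4.66-fold there (log2 difference 2.22, SE 0.30, adjusted p = 3.4e-05, limma), from 146.1 to 237.7 with water to 660.7 to 1136.4 with BTH. In mil4 2 of 7 passed, against 17.4% of all probe sets, CML41 at 6.24-fold (2.64, SE 0.30, adjusted p = 4.4e-06) and CML37 at 4.55-fold (2.19, SE 0.33, adjusted p = 9.91e-05). CML37 was also higher in mil4 than in Col after BTH (1.46, SE 0.33, adjusted p = 0.0157) and lower in sid2 than in Col (-1.52, SE 0.33, adjusted p = 0.00328), 1 of 7 in each, against 3.29% and 13.5% of all probe sets. In each of the other 5 comparisons 0 of 7 passed in limma, with 1 to 3 at an unadjusted p under 0.05. The median difference of the 7 was 0.15 in Col and 0.72 in mil4 after BTH.

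Of 18 genes of pattern-triggered immunity, 2 were measured. BIK1, a receptor-associated kinase that opens calcium channels after pattern sensing, rose after BTH by 0.61 in Col (SE 0.14, adjusted p = 0.00469, limma) and by 0.87 in mil4 (SE 0.14, adjusted p = 0.000173). EFR, the receptor for a bacterial elongation factor, differed by 0.15 and 0.01 and did not pass. In the other 7 comparisons neither passed in limma, and 1 value had an unadjusted p under 0.05. The lists of cyclic nucleotide-gated and other calcium channels, calcium pumps, calcium-dependent kinases, CBL and CIPK proteins, cornichon proteins, glutamate metabolism and wound jasmonate held no named probe set.

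Markers of other cell types moved in some of these comparisons. SWEET11, a sugar transporter of phloem cells and the 1 of 13 vascular markers measured, lay at 1390 to 2160 in Col with water. It was at 2780 to 3370 in Col with BTH, 3040 to 3700 in mil4 with water and 3560 to 4590 in mil4 with BTH, and the groups lacking SID2 spanned 2460 to 3150 (sid2) and 2770 to 4120 (mil4 sid2). It was higher after BTH in Col (0.82, adjusted p = 0.000374, limma), in mil4 with water (0.97, adjusted p = 9.97e-05) and in sid2 (0.70, adjusted p = 0.00148), and its mil4 by sid2 interaction was -0.77. TRY, the 1 of 6 trichome markers measured, lay at 79 to 101 in Col with water, 28.5 to 73.4 in Col with BTH and 19.3 to 69.1 in mil4 with water. It ran from 11.1 to 34.6 when mil4 had BTH, from 45.7 to 72.3 in the double mutant and from 52 to 104 in sid2. It was lower after BTH in Col (-0.84, adjusted p = 0.0341) and in mil4 with water (-0.97, adjusted p = 0.0219). Of the 11 genes listed for guard cells 3 were measured, FAMA, SPCH and MUTE, with medians of 271.9, 116.7 and 14.1. Their sum, which rests mostly on FAMA, was 397 to 480 in Col with water and 227 to 366 in Col with BTH. There FAMA fell by 0.47 (adjusted p = 0.0383, limma). SPCH, at -0.78 (adjusted p = 0.0795), and MUTE, which went the other way at 0.40 (adjusted p = 0.583), did not pass. In the other groups the sum lay between 279 and 522. AGL24, the 1 floral marker measured of 10, and AUR1, the 1 marker of dividing cells measured of 12, passed in none of the 9 comparisons in limma, with an unadjusted p under 0.05 in 3 each. The part of these cell types in the GLR values was not tested, and in whole rosettes fewer cells of a type and less RNA per cell cannot be told apart.

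The GLR probe sets outside the rule were ATGLR1.2 and a probe set shared by GLR2.2 and GLR2.3. ATGLR1.2 lay between 3.4 and 55.3 in Col with water and 30.8 and 68.4 after BTH, a difference of 0.80 (SE 0.37, adjusted p = 0.184, limma). In mil4 it lay between 37.5 and 60.8 with water and 44.3 and 215.0 after BTH, a difference of 1.01 (SE 0.37, adjusted p = 0.0615, limma). It passed in none of the 9 comparisons in limma, with an unadjusted p under 0.05 in 3. Those were BTH in Col, BTH in mil4 and mil4 against Col with BTH, with a higher level each time. The probe set shared by GLR2.2 and GLR2.3 read 1.1 to 19.3 over all arrays.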

How the data were processed

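Total RNA of 24 rosette samples was hybridized to Affymetrix ATH1 arrays, per the labels' protocols. The authors deposited probe-set intensities on a linear scale, as 1 table of 22810 probe sets. Each array had a 2% trimmed mean of 500.0 to 500.1, so the deposited intensities are scaled array by array, which assumes a like total signal. How background and probes were handled, and with which software, was not stated in the sources at hand. Day and fluidics module were read from the hybridization settings of each array, per the file headers. The run was set here from the hybridization times: a new run began wherever successive times lay more than 10 minutes apart.

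The 64 control probe sets were left out and log2(intensity + 16) was taken. Groups came from the sample titles. limma 3.58.1 (R 4.3.3) tested the differences (1 mean per group over all 24 arrays, contrasts, eBayes, 2-sided), adjusted by Benjamini-Hochberg over 22746 probe sets in each comparison, with a threshold of 0.05. The fit was tested on simulated data. Precision is limited by 4 arrays per group. Plots used Python 3.11.15, pandas 2.3.3 and matplotlib 3.10.9.

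Names came from the platform annotation: 13513 probe sets have 1 gene, 503 several and 8730 none, and the last are unnamed here. All 7 GLR genes matched RefSeq (TAIR10.1), used for names and gene order. All 7 are described in every comparison. The genes named beside them are the 3 most correlated with each, and up to 3 of each list with the largest differences, of which a part is described. The members and lists (calcium signalling, pattern-triggered immunity, cell type markers) were chosen with earlier results of these data known.

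Same-numbered arrays of Col with water and Col with BTH deviated together from their group means (r of 0.16 to 0.30 in 4 of 4 pairs, which also shared runs) and count as paired. No other comparison had all its pairs over 0.1. Alternatives were other pseudocounts (1 and 64), quantile normalization, a filter on dim probe sets, blocks for replicate number, day, run and module, fits of the compared groups alone, and leaving out each array.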

Additional observations from a re-analysis of the deposited data

Results flagged for a closer look

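GLR2.8 in sid2 with water replicate 3 read 95 intensity units, while the other sid2 arrays read 32.4, 38.6 and 32.7. GLR2.9 in mil4 with BTH replicate 1 read 34.4, far from the other arrays of that group, on a probe set under 16 in most samples. GLR3.6 in mil4 with water replicate 2 read 49.6, below 69.9, 72.2 and 74.8. On the log2(intensity + 16) scale each stood farther from its group than Dixon's 95% limit for 4 values allows, GLR3.6 only just, and on the linear scale of the values given GLR3.6 stays under the limit. These 3 were found among 42 groups of values tested, and chance flags about 1 in 20.

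In the reported fit the effect of mil4 on GLR3.5 differed between plants with and without SID2, by the mil4 by sid2 interaction of 0.98 (SE 0.27, adjusted p = 0.0385, limma). The value was -0.84 with SID2 and 0.13 in sid2. The call was lost in 16 of 25 other settings, including quantile normalization and the day, run, module and replicate blocks.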

How the results depend on the processing

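Over 63 gene results (7 genes in 9 comparisons), 14 passed in the reported fit, and 1182 values were computed under the alternatives. Of these 1075 kept direction and side of the threshold, 59 lost the call, 15 gained one and 33 changed sign without passing in either fit (lowest adjusted p 0.626). No called value changed sign. Counted among the 1075 are all 17 values of GLR2.9 in mil4 sid2 against sid2, which ran from -0.34 to 0.26. These kept only their side of the threshold, since the reported difference of -0.00 has no clear direction. The 6 BTH rises of GLR1.4, GLR2.7 and GLR2.8 passed under every alternative run. Their highest adjusted p in limma was 0.00746, 0.0115 and 0.0124 in Col. In mil4 it was 0.0461 for each gene, just under the threshold. The causes of the changes below were not tested.

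The replicate block over all 24 arrays, which applies as a pairing to BTH in Col alone, lost 2 calls, GLR3.5 after BTH in Col (adjusted p = 0.0577) and its mil4 by sid2 interaction (adjusted p = 0.0529), and gained GLR2.7 in sid2 (adjusted p = 0.0333). In fits of the compared groups alone with the replicate block, the GLR genes called were 0 for mil4 against Col with water, sid2 against Col, mil4 sid2 against mil4 and the mil4 by sid2 interaction. The probe sets called in those fits were 1057 for BTH in Col, 353 for BTH in mil4 and 324 for mil4 against Col with water. They were 0 for mil4 against Col with BTH, 713 for sid2 against Col, 23 for mil4 sid2 against mil4 and 0 for mil4 sid2 against sid2. The genotype by BTH interaction had 48 and the mil4 by sid2 interaction 892.

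In fits of the compared groups alone without that block, GLR genes called were 4 for mil4 against Col with water, 1 for sid2 against Col and 0 for mil4 sid2 against mil4. Probe sets called were 2155 for BTH in mil4, 956 and 201 for mil4 against Col with water and with BTH, 1691 for sid2 against Col, 609 for mil4 sid2 against mil4, 0 for mil4 sid2 against sid2 and 115 for the genotype by BTH interaction. With fewer arrays these fits have fewer degrees of freedom.

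With the module as a block, probe sets called were 893 and 1379 for BTH in Col and mil4 and 1858 for sid2 against Col. They were 590 for mil4 sid2 against mil4, 21 for mil4 sid2 against sid2 and 818 for the mil4 by sid2 interaction. GLR genes called were 0 for mil4 sid2 against mil4 and 0 for the mil4 by sid2 interaction. With the run as a block, mil4 against Col with water had 1 GLR gene and 680 probe sets, mil4 against Col with BTH had 151 probe sets, and the mil4 by sid2 interaction had 0 GLR genes and 660 probe sets. With the day as a block, mil4 sid2 against sid2 had 1 GLR gene and 121 probe sets, and the mil4 by sid2 interaction 0 and 1190. Day and run could not be fitted for sid2 against Col or mil4 sid2 against mil4.

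Quantile normalization gave 1 GLR gene and 3065 probe sets for sid2 against Col. It gave 1 and 1171 for mil4 sid2 against mil4, and 0 and 1178 for the mil4 by sid2 interaction. It moved the split of higher and lower calls for BTH in mil4 from 2200 and 1768 to 1752 and 2135, for BTH in Col from 1528 and 1358 to 1349 and 1491, and for mil4 sid2 against mil4 from 625 and 641 to 466 and 705. A pseudocount of 64 gave 1 GLR gene and 3280 probe sets for sid2 against Col, and 362 probe sets for the genotype by BTH interaction. The 11373 probe sets above the median brightness left GLR1.4, GLR2.7 and GLR3.3 to test. Brightness was judged over all groups, including the BTH arrays, on which GLR1.4 and GLR2.7 stand high. Calls of these genes gained in that set are therefore not separate support. Among them, GLR genes called were 2 for BTH in Col (3369 probe sets) and 1 for mil4 against Col with water (1954 probe sets). For mil4 sid2 against sid2 it was 1 (302 probe sets). The genotype by BTH interaction had 1 (399 probe sets) and the mil4 by sid2 interaction 0 (1544 probe sets).

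Leaving out each array gave 2637 to 3823 probe sets for BTH in mil4, 431 to 878 for mil4 against Col with BTH, 807 to 1328 for mil4 sid2 against mil4, 24 to 105 for mil4 sid2 against sid2 and 149 to 292 for the genotype by BTH interaction. GLR genes called ran from 1 to 3 for sid2 against Col, 0 to 3 for mil4 sid2 against mil4, 0 to 1 for the genotype by BTH interaction and 0 to 2 for the mil4 by sid2 interaction. Probe sets called ran from 2466 to 2814 for sid2 against Col and from 1016 to 1211 for the mil4 by sid2 interaction.

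The sign changes were as follows, leaving aside GLR2.9 in mil4 sid2 against sid2, whose values lay on both sides of a difference of -0.00. For GLR2.9 the module block gave -0.69 for BTH in Col and -0.51 for sid2 against Col, the run block -0.50 for mil4 against Col with water and 0.49 for the mil4 by sid2 interaction, and sid2 against Col was -0.06 with a pseudocount of 1 and -0.17 after quantile normalization. GLR3.6 was at 0.20 for BTH in Col with the module block. In the genotype by BTH interaction GLR2.8 was at 0.02 with a pseudocount of 64 and GLR2.7 at -0.04 after quantile normalization. Leaving out single arrays gave, for the genotype by BTH interaction, -0.12 to 0.08 for GLR2.7, -0.32 to 0.04 for GLR2.8 and -0.08 to 0.05 for GLR3.3. For mil4 sid2 against sid2 it gave -0.09 to 0.19 for GLR2.7, -0.30 to 0.12 for GLR2.8, -0.16 to 0.03 for GLR3.3 and -0.11 to 0.66 for GLR3.6. It gave -0.02 to 0.19 for GLR1.4 in mil4 sid2 against mil4, -0.27 to 0.01 for GLR2.7 in the mil4 by sid2 interaction and -0.22 to 0.11 for GLR3.5 in mil4 against Col with BTH. For GLR2.9 it gave -0.06 to 0.46 for BTH in Col and -0.25 to 0.24 for sid2 against Col.

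No gene had another probe set to set beside the one used. Signal limits GLR2.9, whose probe set lay under 16 on 14 of 24 arrays.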
